A study of Homo sapiens with 6 samples.

Results

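The 9 genes described here belong to the endothelin and angiotensin systems, with the vasodilator gene ADM beside them, and were chosen by name: EDN1, EDN2, EDNRA, EDNRB, ECE1, ECE2, AGT, ACE and ADM. Each name matched 1 of the 60612 gene rows of the deposited table, low rows included. The genes were chosen with their values in these libraries known, so the difference between the groups is given for them as a description, and nothing is supported with it. RNA came from 6 libraries of SNU-368, a human line that the labels place among hepatocellular carcinoma (HCC) lines. Of these, 3 carried a control short hairpin RNA (shCtrl) and 3 a hairpin against TFAM (shTFAM), the factor that packages mitochondrial DNA and drives its transcription. All 6 libraries therefore express a hairpin, in the same line. The labels name no hairpin sequence, clone, medium or time, and do not say whether replicates were separate cultures, so the spread between replicates may be technical.

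Endothelins are short vasoconstrictor peptides. Their precursors are cut first by furin-like proteases and then by the membrane metalloproteases ECE1 and ECE2, and the peptides act on the receptors EDNRA and EDNRB. Angiotensinogen (AGT), a serum protein made chiefly by hepatocytes, is cut in steps, the last of them by ACE, to the pressor peptide angiotensin II, which acts on AGTR1. Adrenomedullin (ADM) is a vasodilator peptide that acts on the receptor CALCRL paired with a RAMP protein. EDN1 and ADM are known as genes that respond to low oxygen in many cell types.

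The libraries held 43286024 to 61058282 counts. Levels in CPM are counts scaled to the size of each library. A count of 0 allows up to 3 counts, which is 0.0517 to 0.0673 CPM by library; this floor covers counting error only. The first principal component (46.0% of variance) separated the groups, and the second (16.6%) set shCtrl 3 apart from shCtrl 1 and 2. TFAM itself stood at 81.7, 75.8 and 89.2 CPM in shCtrl and at 63.4, 64.7 and 56.4 CPM in shTFAM. On the log2 scale it differed by -0.42 (SE 0.107; edgeR adjusted p = 0.0377), and leaving out any 1 library ended this call (edgeR adjusted p 0.0653 to 0.097). Of 13 hepatocyte and liver cancer markers, ALB, APOA1, APOA2, APOB, TTR, AFP and FGB had no count in any library, and CPS1, KRT8 and KRT18 passed the filter described next. The 13 markers summed to 2630 to 2863 CPM in shCtrl and 2932 to 3137 CPM in shTFAM. Nearly all of that sum was CPS1 (mean 1469 CPM in shCtrl and 1504 CPM in shTFAM), KRT18 (615 and 587 CPM) and KRT8. In the same order, HNF4A had means of 1.59 and 1.82 CPM, TF 0.0269 and 0.0617 CPM, and SERPINA1 0 and 0.144 CPM. KRT8, a keratin, was called higher (629 against 961 CPM, log2 fold change 0.61; edgeR adjusted p = 0.016), while CPS1 (0.03) and KRT18 (-0.07) were not called. As the libraries are bulk RNA, fewer cells of a type and less RNA per cell cannot be told apart.

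The test covered the 14708 rows whose mean over the 6 libraries reached 0.5 FPKM, a unit that scales counts to gene length and depth. Of the 9 members, EDN1, EDN2, ECE1, AGT and ADM passed, each with a mean above 0.5 FPKM in both groups. EDNRA and ACE fell under the filter, and EDNRB and ECE2 had no count in any library. In the fit across all tested rows, 4 members (EDN1, EDN2, ECE1 and ADM) were called higher in shTFAM and AGT was called lower, where 17.9% of all tested rows were called, 11.3% higher and 6.59% lower. The groups did not overlap for the same 5 members, against 42.2% of all tested rows (22.1% higher and 20.1% lower in shTFAM). Since the members were chosen on this contrast, nothing is read from these shares.

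**Figure D1:**
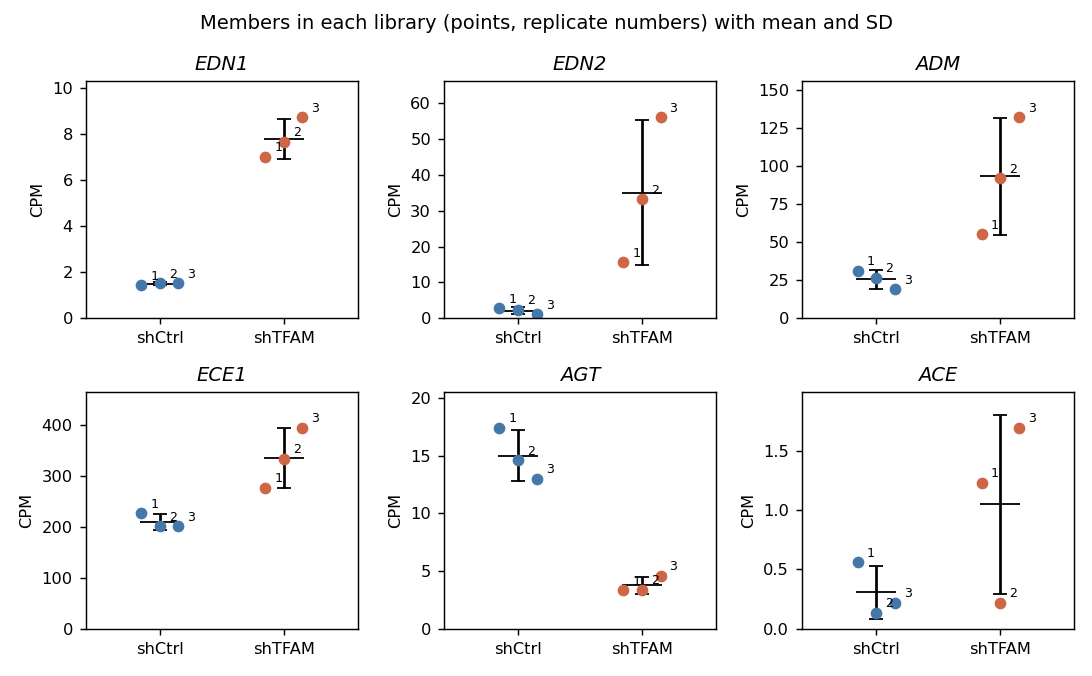
CPM of 6 members in each library, with a panel and a linear axis from 0 for each gene. Points are libraries with their replicate number, and the horizontal mark and bar give the group mean and SD (n = 3). EDN1, EDN2, ADM and ECE1 stood higher and AGT lower in every shTFAM library than in any shCtrl library, while the groups overlapped for ACE.

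The endothelin precursors rose by the most among the members. EDN1 (ENSG00000078401, chromosome 6, 12290361 to 12297194, plus strand, hg38), the precursor of the endothelin best known from vessel walls, had 64, 79 and 76 counts in the shCtrl libraries and 326, 345 and 507 in the shTFAM libraries. In scaled terms these were 1.43, 1.53 and 1.53 CPM against 7.01, 7.66 and 8.73 CPM. The libraries of each group lay close together, with a coefficient of variation of 3.74% in shCtrl and 11.1% in shTFAM, and the lowest shTFAM library stood far above the highest shCtrl library. The means were 1.5 ± 0.0562 and 7.80 ± 0.869 CPM (SD, n = 3), a log2 fold change of 2.38 (SE 0.191), or 5.19-fold. On log2(FPKM + 1), which compresses low values, the log2 fold change was 1.34.

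EDN2 (ENSG00000127129, chromosome 1, 41478775 to 41484683, minus strand), the precursor of a second endothelin that binds the same receptors, changed by more and varied by more. Its counts were 126, 122 and 52 in shCtrl and 731, 1496 and 3255 in shTFAM. In CPM these were 2.83, 2.37 and 1.05 against 15.7, 33.2 and 56.1. Within shTFAM, library 1 was lowest and library 3 was 3.57 times as high as library 1, and within shCtrl library 3 was lowest. The means were 2.08 ± 0.922 and 35.0 ± 20.2 CPM (SD, n = 3), a log2 fold change of 4.07 (SE 0.565), the 40th highest among the 14708 tested rows. The log2 fold change was 3.74 without shCtrl 3, 3.56 without shTFAM 3 and 3.24 without both. On log2(FPKM + 1) it was 3.01.

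Per length, the balance of both endothelins differed between libraries. Summed FPKM of EDN1 and EDN2 were 2.10, 1.86 and 1.20 in shCtrl and 10.9, 19.8 and 30.4 in shTFAM. EDN2 made up 70.8%, 65.5% and 45.6% of that sum in shCtrl and 73.4%, 84.3% and 88.8% in shTFAM. The ratio of EDN2 to EDN1 FPKM was 1.72 ± 0.807 in shCtrl and 5.35 ± 2.59 in shTFAM (SD, n = 3), so that EDN2 was the larger share in every library except shCtrl 3. EDN3, the precursor of the remaining endothelin, had 6 counts in shTFAM 3 and none in the other libraries.

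**Figure D2:**
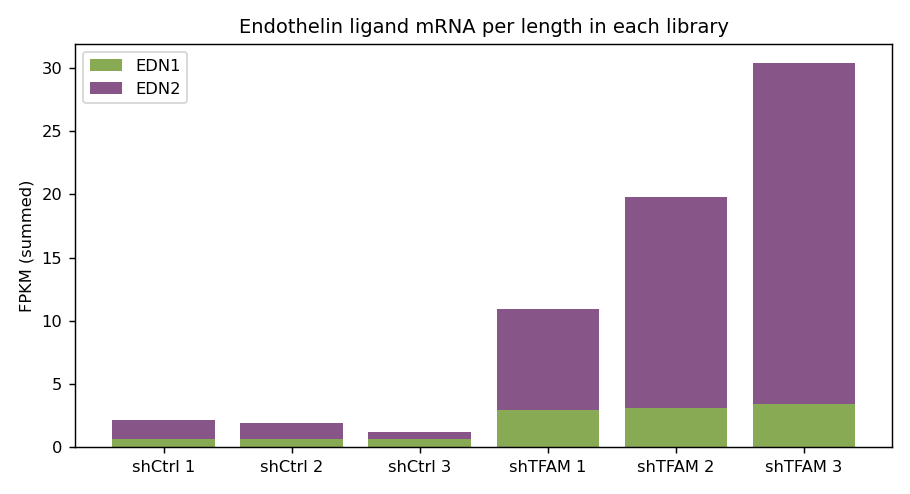
FPKM of EDN1 and EDN2 stacked for each of the 6 libraries, on a linear axis from 0. The sum was 1.20 to 2.10 FPKM in shCtrl and 10.9 to 30.4 FPKM in shTFAM, and most of the spread among shTFAM libraries lay in EDN2.

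ADM (ENSG00000148926, chromosome 11, 10305073 to 10307397, plus strand) encodes the precursor of adrenomedullin and had the highest mean FPKM of the peptide genes among the members in both groups. It had 1391, 1377 and 940 counts in shCtrl and 2567, 4145 and 7669 in shTFAM. The CPM were 31.2, 26.7 and 19.0 against 55.2, 92.0 and 132. The order of libraries was that of EDN2, with shCtrl 3 lowest and shTFAM 3 highest of all. The means were 25.6 ± 6.19 and 93.1 ± 38.4 CPM (SD, n = 3), a log2 fold change of 1.86 (SE 0.331), or 3.64-fold. Without shCtrl 3 and shTFAM 3 it was 1.35. ADM2, a related peptide of the same family, stood at 20.7, 20.7 and 5.69 CPM in shCtrl and 13.2, 4.46 and 4.43 CPM in shTFAM, and the groups overlapped (log2 fold change -1.09 with SE 0.606; edgeR, adjusted p = 0.245). Without shTFAM 1 the log2 fold change of ADM2 was -1.83 (edgeR adjusted p = 0.089).

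Sequences before the start sites of the ligand and precursor genes are shown because these members moved together or, for AGT, the other way. Of the 9 members, 8 (not ECE2) had an entry in the RefSeq promoter table (GRCh38.p14), and for 6 an entry began at the start of the deposited gene row. Below are the 250 bases before the start, 5′ to 3′ on the gene's strand, at chr6:12290111-12290360 (plus) for EDN1, chr11:10304823-10305072 (plus) for ADM, chr1:41484684-41484933 (minus) for EDN2 and chr1:230714123-230714372 (minus) for AGT. Capitals mark every match, on either strand, to any of 5 motifs. These were ACGTG, a core that hypoxia-inducible factors bind, and the AP-1 motif TGANTCA. The GATA factor motif was searched as TGATAA and as AGATAA. The TATA box was searched as TATAAA.
EDN1: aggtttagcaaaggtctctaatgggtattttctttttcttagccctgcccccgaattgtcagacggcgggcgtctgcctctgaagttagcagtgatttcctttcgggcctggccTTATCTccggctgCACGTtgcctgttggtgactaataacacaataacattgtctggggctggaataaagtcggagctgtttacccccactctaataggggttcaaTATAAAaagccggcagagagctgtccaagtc
ADM: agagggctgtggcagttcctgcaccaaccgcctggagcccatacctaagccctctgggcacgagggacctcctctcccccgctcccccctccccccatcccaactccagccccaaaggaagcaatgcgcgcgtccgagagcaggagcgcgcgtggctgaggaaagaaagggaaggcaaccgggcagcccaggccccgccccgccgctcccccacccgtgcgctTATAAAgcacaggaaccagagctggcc
EDN2: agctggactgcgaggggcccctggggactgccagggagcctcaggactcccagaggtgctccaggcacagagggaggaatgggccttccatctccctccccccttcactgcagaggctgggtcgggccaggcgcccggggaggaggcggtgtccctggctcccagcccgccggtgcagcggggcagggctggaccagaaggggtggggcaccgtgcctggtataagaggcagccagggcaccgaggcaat
AGT: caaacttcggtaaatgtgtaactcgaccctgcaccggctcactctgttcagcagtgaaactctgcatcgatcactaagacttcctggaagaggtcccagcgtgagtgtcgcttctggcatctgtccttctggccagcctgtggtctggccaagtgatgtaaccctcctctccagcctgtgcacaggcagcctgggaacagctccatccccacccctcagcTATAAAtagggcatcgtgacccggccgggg
ADM, AGT and EDN1 held TATAAA on the plus strand, beginning 27, 30 and 31 bases before the start, and ACE held it on the minus strand 31 bases before. TATAAA was found in 10.7% of 35116 promoter entries of the same length. EDN1 also held ACGTG (18.5% of entries) on the minus strand 123 bases before the start, and AGATAA (9.17%) on the minus strand 136 bases before. No listed motif matched in the EDN2 or ECE1 window, and TGANTCA (6.57%) and TGATAA (6.66%) matched in none of the 6. Only these exact strings were searched, so a window without a match may still hold another form of the same motif. GC content was 49.2% for EDN1, 57.2% for AGT, 68.0% for ADM, 70.8% for EDN2, 75.2% for ACE and 76.8% for ECE1, against a median of 58.0% over all entries. A match is a description of these letters and was not tied to any binding.

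ECE1 (ENSG00000117298, chromosome 1, 21217247 to 21345504, minus strand), the protease that releases active endothelin, had the highest mean FPKM of the members in both groups, although ADM exceeded it in shTFAM 3 (45.1 against 42.8 FPKM). It had 10145, 10385 and 9972 counts in shCtrl and 12865, 15033 and 22865 in shTFAM. The CPM were 227, 201 and 201 against 277, 334 and 394. The groups did not overlap, but the rise was the smallest of the 4, from 210 ± 15.1 to 335 ± 58.5 CPM (± SD over 3 libraries), a log2 fold change of 0.67 (SE 0.141), or 1.59-fold. Its call ended without shCtrl 2, shCtrl 3 or shTFAM 2 (log2 fold changes 0.64, 0.63 and 0.68), and without shCtrl 3 and shTFAM 3 together (0.51). The ratio of ECE1 to EDN1 FPKM was 44.3, 37.0 and 36.9 in shCtrl and 11.0, 12.2 and 12.6 in shTFAM.

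The antisense row ECE1-AS1, which overlaps ECE1 by 6585 bases on the other strand, had 25 counts in shTFAM 1, 10 in shTFAM 3 and none elsewhere, small beside ECE1. The related protease ECE2 (ENSG00000145194, chromosome 3, 184276011 to 184293031, plus strand) had no count in any library. All 17021 bases of its row also lie in the readthrough row EEF1AKMT4-ECE2, which had no count either. The sources used here do not say how reads shared by both rows were counted, so the level of ECE2 is uncertain.

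Of the genes that cut endothelin precursors or destroy the peptide, FURIN rose, from 109 ± 6.32 to 203 ± 23.2 CPM (± SD over 3 libraries), a log2 fold change of 0.90 (SE 0.112; edgeR adjusted p = 0.0042). PCSK7, another proprotein convertase, stood at a log2 fold change of 0.25 (edgeR adjusted p = 0.320). These were the 2 tested genes of 7 on the list, where 11.3% of all tested rows rose, and the list was drawn up with earlier results of these data known. MME (neprilysin), a membrane protease that degrades endothelin, adrenomedullin and angiotensins, lay under the filter. It had 185, 222 and 126 counts in shCtrl and 8, 4 and 0 in shTFAM, and in the fit without the filter it differed by -5.42 on the log2 scale (SE 0.789; edgeR adjusted p = 0.00784).

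The receptors of endothelins were at or near 0 counts. EDNRA (ENSG00000151617, chromosome 4, 147480917 to 147544954, plus strand) had 4 counts in shCtrl 3, 4 in shTFAM 1 and none in the other libraries, so no fold is given. EDNRB (ENSG00000136160, chromosome 13, 77895481 to 77975529, minus strand) had 0 counts in all 6 libraries, which allows at most the floor given above. The libraries with the high EDN1 and EDN2 levels thus held no detectable EDNRB and at most 4 counts of EDNRA. The mRNAs of the adrenomedullin receptor were also not detected at this depth, with 0 counts of CALCRL, RAMP1, RAMP2 and RAMP3 in every library, as of CALCR.

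A different receptor of adrenomedullin was detected in shTFAM. ACKR3, an atypical chemokine receptor that also takes up adrenomedullin, had 0, 4 and 9 counts in shCtrl and 117, 153 and 292 in shTFAM (log2 fold change 5.33, SE 0.770; edgeR, adjusted p = 0.00648). ACKR3 passed the filter only through the shTFAM libraries, did not pass it without shTFAM 3, and its log2 fold change was 4.78 without shCtrl 1, 6.38 without shCtrl 3 and 1.22 on log2(FPKM + 1). PAM, the enzyme that amidates adrenomedullin and other peptide hormones, rose from 73.5 ± 0.585 to 188 ± 40.0 CPM (± SD over 3 libraries), a log2 fold change of 1.35 (SE 0.153; edgeR adjusted p = 0.00343). Of 13 genes of the adrenomedullin and calcitonin family, 4 were tested, ACKR3 and PAM rose, none fell, and 7 had no count, where 11.3% of all tested rows rose. As ACKR3 passed the filter through shTFAM alone, the count of 2 is not read against that share.

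AGT (ENSG00000135744, chromosome 1, 230702523 to 230714122, minus strand) was the member that fell. It had 774, 755 and 646 counts in shCtrl and 155, 153 and 267 in shTFAM. The CPM were 17.4, 14.6 and 13.0 against 3.33, 3.40 and 4.60. Every shTFAM library was lower than every shCtrl library, and shTFAM 3, which was highest for the peptide genes above, was also the highest shTFAM library for AGT. The means were 15.0 ± 2.19 and 3.78 ± 0.713 CPM (SD, n = 3), a log2 fold change of -1.99 (SE 0.205), or 3.97-fold lower, the 106th lowest among 14708 rows.

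ACE (ENSG00000159640, chromosome 17, 63477061 to 63498373, plus strand), which turns angiotensin I into angiotensin II and also degrades bradykinin, was low and variable. It had 25, 7 and 11 counts in shCtrl and 57, 10 and 98 in shTFAM, or 0.561, 0.136 and 0.222 against 1.23, 0.222 and 1.69 CPM. Library shTFAM 2 stood with the shCtrl libraries, and ACE was not called in the fit without the filter (log2 fold change 1.78, SE 0.806).

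Among AGTR1, AGTR2 and MAS1, the receptors of angiotensin peptides, counts were found for AGTR1 in shTFAM. AGTR1 had no count in the 3 shCtrl libraries and 22, 27 and 63 counts in the shTFAM libraries, or 0.473, 0.599 and 1.09 CPM. If counts are read as fragments, the shTFAM mean was 11.6-fold the floor of 3 counts per library in shCtrl. The row was called higher in the fit without the filter (edgeR adjusted p = 0.0128). That fit took every row with any count, and AGTR1 entered it through the shTFAM libraries alone, so nothing is read from the call. The receptors AGTR2 and MAS1 had 0 counts in all libraries. Low counts in the table do not move in single steps: the value 4 occurred 6456 times, 3 occurred 3606 times and 5 occurred 1815 times, so a low count need not equal that many fragments.

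Of 22 other genes of the angiotensin and kinin systems, 12 were tested and edgeR called none (2 at an unadjusted p under 0.05), where 17.9% of all tested rows were called. The list had a median log2 fold change of 0.12 against -0.015 for all tested rows. The 2 at an unadjusted p under 0.05 were CTSD, which encodes cathepsin D, and BDKRB2. DESeq2 called both higher, 2 of the 12, where it called 3850 of all 14708 tested rows. Of the 12, 4 did not overlap between groups, where 42.2% of all tested rows did not. BDKRB2, a bradykinin receptor, did not overlap between groups, at 6.39, 8.78 and 3.71 CPM in shCtrl and 10.8, 10.4 and 12.5 in shTFAM (log2 fold change 0.83, SE 0.304; edgeR, adjusted p = 0.1). Values of the aminopeptidases RNPEP (log2 fold change 0.0, SE 0.0926) and LNPEP (0.06, SE 0.121) overlapped between groups.

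Genes that carry the signal of these receptors inside the cell were examined by a list of 23 G proteins, phospholipases, calcium channels and regulators, of which 19 were tested. Of these, 7 rose and none fell (36.8%, where 11.3% of all tested rows rose). The median log2 fold change was 0.26, against -0.015 for all tested rows. The list was drawn up with earlier results of these data known. PRKCA, a protein kinase C isoform, rose from 97.7 ± 1.24 to 192 ± 24.7 CPM (± SD over 3 libraries), a log2 fold change of 0.97 (SE 0.113; edgeR adjusted p = 0.00354). PLCB3, a phospholipase C driven by Gq proteins, rose by 0.77 (SE 0.102), the inositol trisphosphate receptor ITPR2 by 0.95 (SE 0.137) and the inhibitory G protein GNAI2 by 0.70 (SE 0.0957). GNAQ and GNA11, the Gq proteins that endothelin and angiotensin receptors couple to, stood at 0.22 (SE 0.0938) and 0.26 (SE 0.1) and were not called. Without shTFAM 3, 9 of all the pathway genes were called in place of 14.

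**Figure D3:**
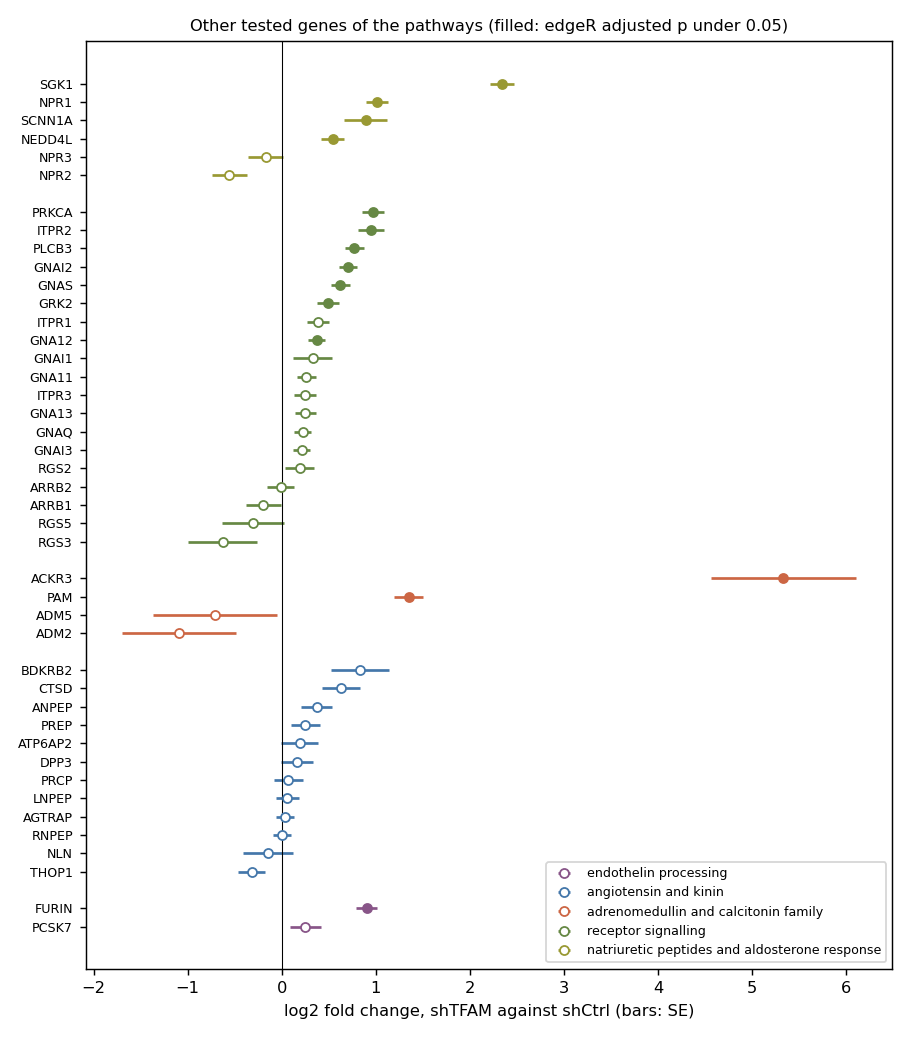
Log2 fold change (shTFAM against shCtrl) and SE of the 43 tested genes on the 5 pathway lists, coloured by list, with filled points for genes past an edgeR adjusted p of 0.05 over all rows. ACKR3 at 5.33 and SGK1 at 2.34 stood farthest to the right. None of the 12 tested angiotensin and kinin genes was called, where 17.9% of all tested rows were.

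Ordered by level per length, the members in shCtrl ran from ECE1 (25.0 FPKM) through ADM (9.55), AGT (6.17), EDN2 (1.08) and EDN1 (0.636) to ACE (0.0304). The ranges of ADM and AGT overlapped, as did those of EDN2 and EDN1. In shTFAM the order was ECE1 (37.5 FPKM), ADM (32.6), EDN2 (17.2), EDN1 (3.14), AGT (1.46) and ACE (0.0977). There the ranges of ECE1 and ADM overlapped, as did those of ADM and EDN2. AGT thus stood above both endothelin genes in every shCtrl library and below both in every shTFAM library. Against all tested rows, EDN2 moved from the 16.9th to the 84.8th percentile of mean FPKM, EDN1 from the 5.63rd to the 43.3rd, and AGT from the 61.1st to the 24.9th.

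**Figure D4:**
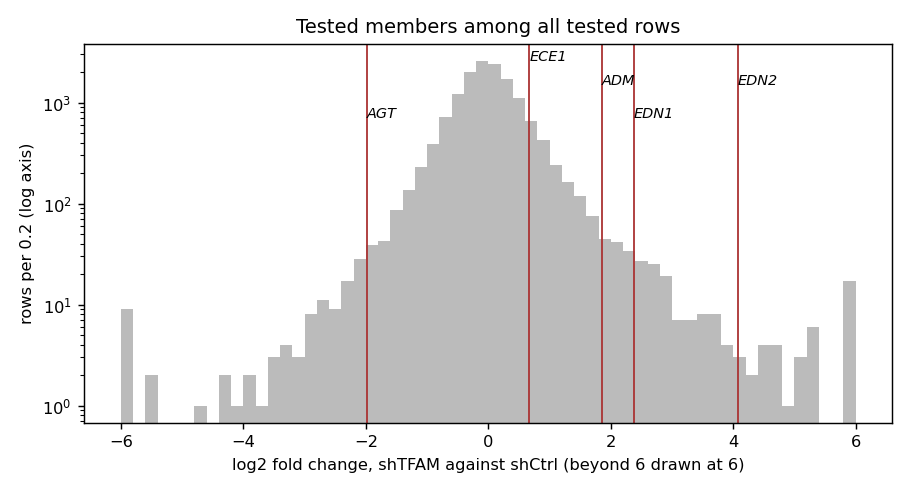
Number of tested rows by log2 fold change in steps of 0.2, on a log axis, with red lines at the 5 tested members. ECE1 at 0.67 lay within the bulk of rows, whereas AGT at -1.99, ADM at 1.86, EDN1 at 2.38 and EDN2 at 4.07 lay in the tails.

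Over the 6 libraries, the log2 CPM of EDN2 and ADM followed each other most closely among the members that rose, together with ECE1 and ADM (Pearson r 0.99 for each pair). AGT ran against EDN1 (r -0.97). The 6 libraries fall into separated groups and share these differences, so the values are a description with no test. By the same measure, among 6354 rows with at least 5 FPKM and an ordinary symbol, the rows most like EDN1 were PRELID3B, CTSA and MYO1G (r 0.9998, 0.9993 and 0.9985), and 62 rows exceeded 0.99. For EDN2 they were NOMO2, CHAF1A and CEP152 (0.9996, 0.9978 and 0.9973) and for ADM AFF4, COL5A2 and KIZ (0.9989, 0.9981 and 0.996). For ECE1 they were SGO1, RPL23AP64 and GOLGA2 (0.9986, 0.9979 and 0.9971), and for AGT CHML, CHMP4C and PRRT3-AS1 (0.9968, 0.9965 and 0.9916). Rows over 0.99 numbered 25 for EDN2, 14 for ADM, 18 for ECE1 and 4 for AGT. A high r does not measure the size of a difference. The closest rows had smaller log2 fold changes than their members in some cases, at 0.70 (PRELID3B), 0.18 (NOMO2), 0.28 (AFF4), 0.31 (SGO1) and -0.26 (CHML). Of these, only PRELID3B was called.

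Markers of endothelial cells, the best known source of endothelin, and of other cell types were counted beside the members. Of 10 endothelial markers, KDR, CLEC14A, ERG and EMCN had no count, none passed the filter, and the summed level was 3.79 to 5.27 CPM in shCtrl and 4.97 to 6.37 CPM in shTFAM, ranges that overlapped. Single endothelial markers went both ways without overlap: TIE1 had 0, 0 and 4 counts in shCtrl and 24, 34 and 16 in shTFAM, TEK had 1, 4 and 7 against 18, 15 and 21, and ESAM had 55, 68 and 40 against 35, 32 and 29. In the fit without the filter none of these 3 was called (edgeR adjusted p 0.0954, 0.194 and 0.308). Of 10 stellate cell, fibroblast and smooth muscle markers, 7 were tested and 2 rose, where 11.3% of all tested rows rose. These were PDGFRB (log2 fold change 1.69, edgeR adjusted p = 0.000721) and DCN (2.95, edgeR adjusted p = 0.00276). DCN had 0.201 FPKM in shCtrl and passed the filter only through shTFAM, so the count of 2 is not read against that share. The log2 fold changes of the tested markers not called were 1.17 (LUM), 0.39 (DES), 0.09 (COL1A1), -0.31 (RGS5) and -0.68 (ACTA2). COL3A1, a fibrillar collagen gene under the filter, had 18, 11 and 16 counts in shCtrl and 263, 257 and 172 in shTFAM, and was called higher in the fit without the filter (log2 fold change 3.92; edgeR adjusted p = 0.00254). The 10 markers summed to 263 to 401 CPM in shCtrl and 403 to 478 CPM in shTFAM, and the stellate marker LRAT had no count. Most of that sum was COL1A1, at 360, 335 and 219 CPM in shCtrl and 299, 304 and 371 CPM in shTFAM. Of 7 immune markers, PTPRC, CD3E and LYZ had no count, and CD68 and CSF1R rose (summed level of the 7 38.3 to 43.7 CPM in shCtrl and 74.2 to 117 CPM in shTFAM). The part of these markers in the members' differences was not tested.

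**Figure D5:**
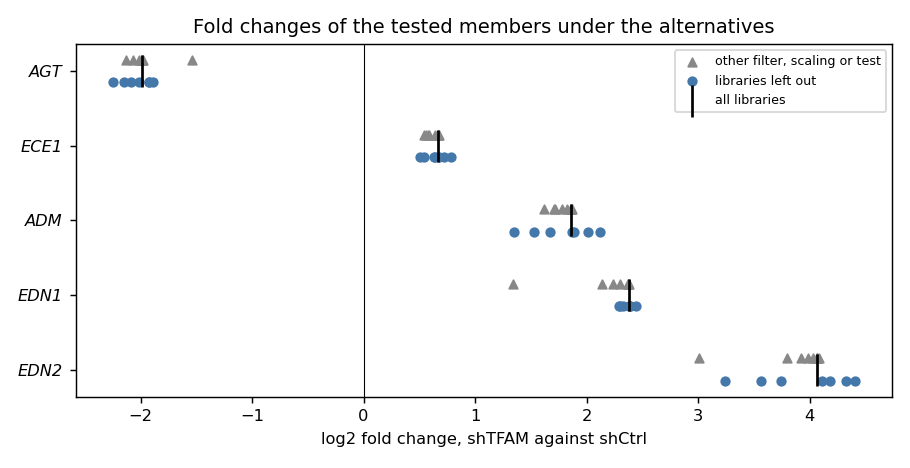
Log2 fold change of the 5 tested members with all libraries (black bars), with libraries left out (blue points) and under other filters, scalings and tests (grey triangles). No value crossed 0, and EDN2 had the widest span, from 3.01 to 4.41.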

How the data were processed

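RNA was measured in 3 shCtrl and 3 shTFAM libraries. Strand-marked libraries of polyadenylated RNA were sequenced as paired reads, per the labels' protocols. The authors deposited 1 table of 60612 rows with 6 columns of counts and 6 of FPKM. Builds hg38 and mm8 and the tools StringTie 1.3.4d, HISAT2 2.0.4, cutadapt 1.9 and Bowtie 0.12.2 are listed without roles, per the submitters' processing notes. The counting tool, annotation and strand setting are not given in the sources used here. Columns were matched to samples by title.

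The 14708 rows that reached a mean of 0.5 FPKM were tested on the deposited counts with edgeR 4.0.16 (R 4.3.3; quasi-likelihood test, TMM scaling, two-sided, Benjamini-Hochberg adjustment over all tested rows, threshold 0.05), which was tested on simulated data. A called gene is past that threshold. Standard errors (SE) were obtained as the absolute log2 fold change over the square root of F. CPM use TMM-scaled library totals. The members and gene lists were chosen with earlier results of these data known. Named list genes are the ligands and receptors, up to 4 called genes per list with the smallest p, and, chosen after their values were seen, MME, CTSD, BDKRB2, RNPEP, LNPEP, GNAQ, GNA11, PCSK7, NPR2, NR3C2, single cell type markers, AMPD3, COG2 and the other neighbours. Some listed genes are not reported here. Rows like a member are the 3 with the highest Pearson r of log2 CPM (prior count 2). No replicate pair agreed within sampling noise (lowest chi-square per degree of freedom 42.6). Alternatives used DESeq2 1.42.0, limma 3.58.1 on log2(FPKM + 1) and log2(FPKM + 0.1), other filters and scalings, and left-out libraries. The fit without a filter, given for genes of low level, and the alternatives of single list genes were added after seeing the data.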

Additional observations from a re-analysis of the deposited data

How the results depend on the processing

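All 5 tested members kept their direction under every alternative in which they passed the filter. The count of called members was 5, and 4 to 5 with libraries left out, where ECE1 was the one lost. It was 3 with rows of at least 5 FPKM, where EDN1 and AGT were no longer tested, and 3 at an adjusted p of 0.01, where ADM and ECE1 dropped out. The 14 called pathway genes became 9 to 13 with libraries left out, and 18 in DESeq2, 17 higher and NPR2 lower. DESeq2 also called more of all 14708 rows, 3850 (2173 higher and 1677 lower) against 2630 in edgeR, so nothing is read from the larger count. Of all rows, 2630 were called, and 1170 to 2093 with libraries left out, with 1306 without shCtrl 1, 1170 without shCtrl 2, 1749 without shTFAM 1, 1351 without shTFAM 2 and 1390 without shTFAM 3. At an adjusted p of 0.01 there were 698. Scaling to library totals called 1353 rows higher and 1272 lower, and scaling to counts outside mitochondrial DNA called 1198 and 1771 against 1661 and 969, as the median over tested rows shifted from -0.015 to -0.15 in log2. Under the latter scaling the members stood at 2.24 (EDN1), 3.92 (EDN2), 1.72 (ADM), 0.54 (ECE1) and -2.13 (AGT). The calls of SCNN1A and NEDD4L each ended under 7 alternatives. No paired analysis was possible because the labels give the groups no shared replicate numbers. Depth limits the receptors and ACE.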

Other observations

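Genes of the response to aldosterone, the steroid released by angiotensin II, and to natriuretic peptides included 4 that rose among 6 tested of 12, and none fell (66.7%, where 11.3% of all tested rows rose, on a list drawn up with earlier results known). SGK1, a kinase induced by mineralocorticoids and glucocorticoids, rose from 71.2 ± 11.7 to 361 ± 11.9 CPM (± SD over 3 libraries), a log2 fold change of 2.34 (SE 0.132; edgeR adjusted p = 0.000668). NPR1, the guanylyl cyclase receptor of atrial natriuretic peptide, rose from 27.5 ± 0.655 to 55.2 ± 7.20 CPM (log2 fold change 1.01, SE 0.12). The sodium channel subunit SCNN1A (0.89, SE 0.228) and the ubiquitin ligase NEDD4L (0.54, SE 0.121), which removes that channel from the membrane, were also called. NPR2, the receptor of C-type natriuretic peptide, was lower in every shTFAM library, at 6.79, 5.74 and 5.2 CPM in shCtrl and 3.94, 4.24 and 3.86 in shTFAM (log2 fold change -0.56; edgeR adjusted p = 0.0788), and DESeq2 called it lower. The mineralocorticoid receptor NR3C2 itself had 0, 21 and 6 counts in shCtrl and 4, 0 and 4 in shTFAM.

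Of the 18 nearest tested rows on either side of the members, 2 were called (11.1%), where 17.9% of all tested rows were called. The 18 include neighbours of the untested members EDNRA, EDNRB, ECE2 and ACE, none of them called. With so few rows, nothing is read from this share. AMPD3, an AMP deaminase gene that begins 0.916 kb after ADM, rose (log2 fold change 1.14, SE 0.216, edgeR adjusted p = 0.0153), while SBF2 on the other side stood at 0.30 (edgeR adjusted p = 0.111). COG2, 8.54 kb from AGT, fell (log2 fold change -0.48, SE 0.133, edgeR adjusted p = 0.0478). Neither tested neighbour of EDN1 (HIVEP1 and RPL15P3), EDN2 (FOXO6 and FOXJ3) or ECE1 (EIF4G3 and HS6ST1P1) was called.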
